A study of Mus musculus with 9 samples.

Results

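The 9 classical cadherin genes Cdh1, Cdh2, Cdh3, Cdh4, Cdh5, Cdh6, Cdh7, Cdh8 and Cdh11 were examined for TWIST1 ChIP-seq peaks in mouse embryoid bodies. They are 9 of 21887 protein-coding genes on the main chromosomes, taken by name, in a choice made with earlier results of these data known. A peak was counted at a gene when its summit lay inside the gene body or, outside all genes, when that gene body was the nearest within 100 kb. ChIP-seq sequences the DNA that an antibody, here against TWIST1, pulls down with crosslinked chromatin. The overexpressing cells (genotype label Twist1-OE, here OE) were A2loxcre embryonic stem cells with a Twist1-/- background and a doxycycline-inducible Flag-Twist1, and the control cells (Twist1-KO, here KO) were Twist1-/- without the inducible cassette. Both genotypes carry the strain label C57BL/6, were aggregated into embryoid bodies, were differentiated for 3 days and received doxycycline for 16 h. Neither genotype therefore had its endogenous Twist1, and the number of clones behind each line is not stated in the labels. Peak lists of 4 OE ChIP libraries, 2 KO ChIP libraries (numbered 2 and 3) and 1 KO input, DNA not pulled down with an antibody, were analysed. The 2 input libraries of OE cells were not analysed here. Peak lists hold no expression values, so the labelled cell type was not checked against its markers, and binding at a gene says nothing here about its transcription.

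Classical cadherins are calcium-dependent adhesion receptors that bind the same cadherin on a neighbouring cell through extracellular repeats and hold actin through catenins at their cytoplasmic tails. Type I members such as E-cadherin (Cdh1) and N-cadherin (Cdh2) mark epithelia and neural or mesenchymal tissue respectively. Type II members such as Cdh6, Cdh7 and Cdh11 are known from neural crest and mesenchyme. In epithelial-mesenchymal transition, cells lower E-cadherin and raise N-cadherin, and TWIST1 is among the bHLH factors known for repressing Cdh1 in that setting. bHLH dimers recognise the E-box, whose core is CANNTG.

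The libraries differed in depth. No label gives read totals, so depth was read from the background pileup that most peaks of a list share. This background was 1.00 and 1.20 fragments for OE libraries 1 and 4, 5.29 and 5.38 for OE libraries 3 and 2, and 4.73 and 5.09 for the KO ChIP libraries. The lists held 22308, 106750, 87385 and 14078 peaks on the main chromosomes in OE libraries 1 to 4, and 94 and 62 in KO libraries 2 and 3. At the Twist1 gene itself OE libraries 1 to 4 had 1, 4, 5 and 1 peaks and both KO libraries none, but the cassette carries Twist1 sequence too.

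TWIST1 peaks lay at every one of the 9 cadherin genes in the 2 deeper OE libraries and at none of them in either KO ChIP library. Together the 9 genes held 32, 140, 104 and 13 peaks in OE libraries 1 to 4. A peak was found at 8 of the 9 genes in OE library 1, where 47.3% of all protein-coding genes had one. The same held for 9 of 9 in OE library 2 (80.6% of all genes), 9 of 9 in OE library 3 (77.5%) and 5 of 9 in OE library 4 (37.4%). The median cadherin gene had 2, 8, 5 and 2 peaks in OE libraries 1 to 4, against 0, 3, 2 and 0 for the median of all genes. In KO libraries 2 and 3, 0.21% and 0.0959% of all genes had a peak. The KO input held 1 peak at the 9 genes, inside Cdh3, 543 bp from its upper-coordinate end, with a fold enrichment of 3.89 (5.29% of all genes had an input peak). No OE region of all 4 libraries at the 9 genes overlapped it.

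Cdh4, which encodes R-cadherin, had the most peaks, with 11, 55, 48 and 4 in OE libraries 1 to 4. Cdh1 followed with 8, 24, 19 and 2. Cdh3, which encodes P-cadherin, had 4, 18, 15 and 2. These 3 type I genes thus held most of the peaks, and each had more in the 2 deeper libraries than in the others. Cdh2 had 2, 8, 5 and 3 peaks, and Cdh11, the osteoblast or mesenchymal cadherin, had 2, 9, 4 and 2. Cdh5 (VE-cadherin of endothelium) and Cdh8 had the same counts, 1, 8, 3 and 0. Cdh6 had 0, 8, 5 and 0, and Cdh7 had 3, 2, 2 and 0. All 4 OE counts exceeded both KO counts for 5 of the 9 genes, Cdh1, Cdh2, Cdh3, Cdh4 and Cdh11, and the other 4 had no peak in OE library 4. Of all protein-coding genes 35% had every OE library above both KO libraries. Without OE library 4 the count was 8 of 9 (46.0% of all genes), with Cdh6 the exception for want of a peak in OE library 1.

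**Figure D1:**
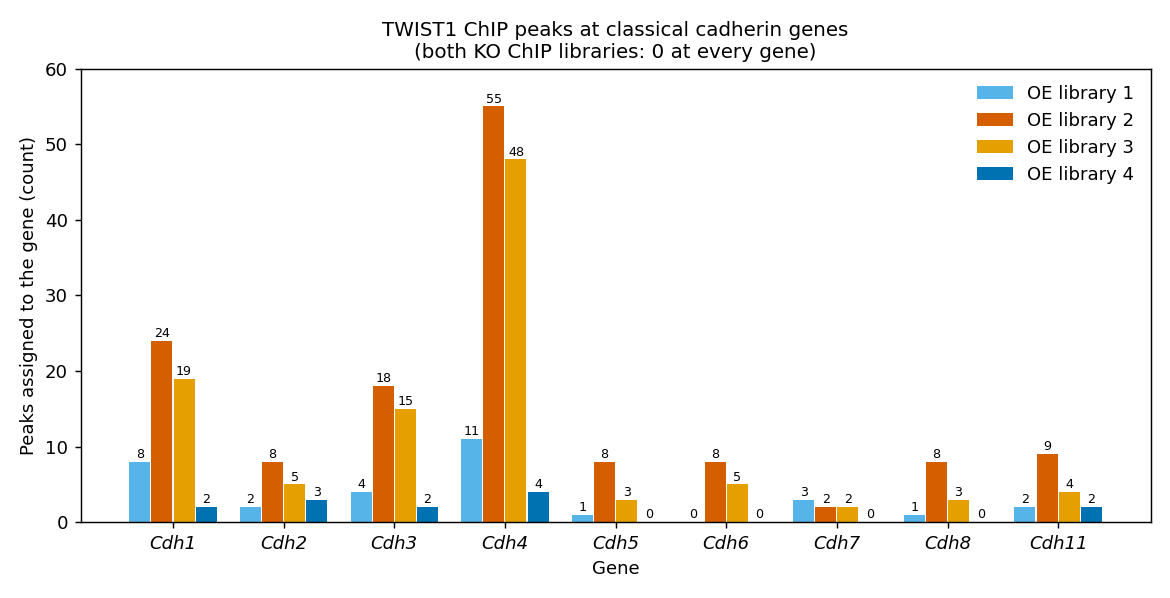
Number of peaks (y axis, count) assigned to each of the 9 cadherin genes (x axis) in OE libraries 1 to 4 (bars). OE libraries 2 and 3 stand highest at 8 of the 9 genes, Cdh4 reaches 55 and 48, and both KO ChIP libraries have 0 at every gene.

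The difference in peak number between OE and KO was tested for each gene on mean log2(count + 1) by an exact permutation test, two-sided, over the 15 possible assignments of the group labels. The smallest p that this design can give is 0.0667, so no gene could pass 0.05. Cdh1, Cdh2, Cdh4 and Cdh11 had an exact p of 0.0667, and Cdh3 had an exact p of 0.133. For Cdh5, Cdh7 and Cdh8 the exact p was 0.333, and for Cdh6 it was 0.467. After Benjamini-Hochberg adjustment over all 21887 genes the exact permutation p-values of the 9 ran from 0.351 to 0.622, and 0 genes of the genome were under 0.05, adjusted or unadjusted.

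Regions were then formed by merging OE peaks that shared at least 1 bp, and the reproducible ones were those with a peak of each of the 4 OE libraries and without an overlapping peak of any KO library, input included. Of the 9 cadherin genes 5 had such a region, where 30.3% of all protein-coding genes did: Cdh4 had 4, Cdh3 and Cdh11 had 2 each, and Cdh1 and Cdh2 had 1 each. Cdh5, Cdh6, Cdh7 and Cdh8 had none. Of all genes 8.46% had at least 2 reproducible regions and 1.13% at least 4. The median was 1 region for the cadherin genes and 0 for all genes. Cadherin genes are long, and their combined territory of 2864500 bp would hold 14.3 regions at the genome-wide density, against the 10 found. Here and below, such expected numbers spread regions evenly over territory. Of all regions given to genes, however, 33.6% lay within 1 kb of a gene end. The expected numbers therefore run high for long genes and low for short ones, and no shortfall or excess is read from them. Cdh1, Cdh3 and Cdh4 had more than their territories would give (1 against 0.480, 2 against 0.552 and 4 against 2.37). Cdh11 was near it (2 against 1.76), and Cdh2 and the 4 genes without a region were under it (1 against 2.09 at Cdh2, 0 against 2.95 at Cdh8). A gene without a region is always under its expected number, and 1 region exceeds any expected number below 1, as at Cdh1. For single genes the comparison thus rests on very few regions and partly restates which genes had one. When 3 of the 4 OE libraries sufficed, 6 of the 9 genes had a region (43.2% of all genes), Cdh7 being the addition, and the regions numbered 26. Leaving out OE library 4 gave 27 regions at the same 6 genes, where 40.9% of all genes had one.

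The 10 regions differed widely in strength, with single peaks from a fold of 4.61 at Cdh2 to 621 at Cdh4, as the plot of fold by region shows. Fold enrichment is the authors' ratio at a summit, which the recovered values give as (pileup + 1)/(local background + 1). The added 1 lowers folds more in OE libraries 1 and 4, with their low background, than in 2 and 3. Folds of different libraries are therefore not on an equal footing, and a mean ± SD over the 4 libraries carries this difference too. The percentile of a fold is the share of peaks in the same list at or below it. All 10 regions had folds above the lowest fold that a peak needed to be listed in the KO libraries at their commonest background, 3.66 in KO library 2 and 3.61 in KO library 3. That was largely set in advance in OE libraries 1 and 4, where listing took a fold of 4.00 or 4.09 at the commonest background. The KO libraries had 0 peaks at each of the 10 regions, as the definition of a reproducible region requires.

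**Figure D2:**
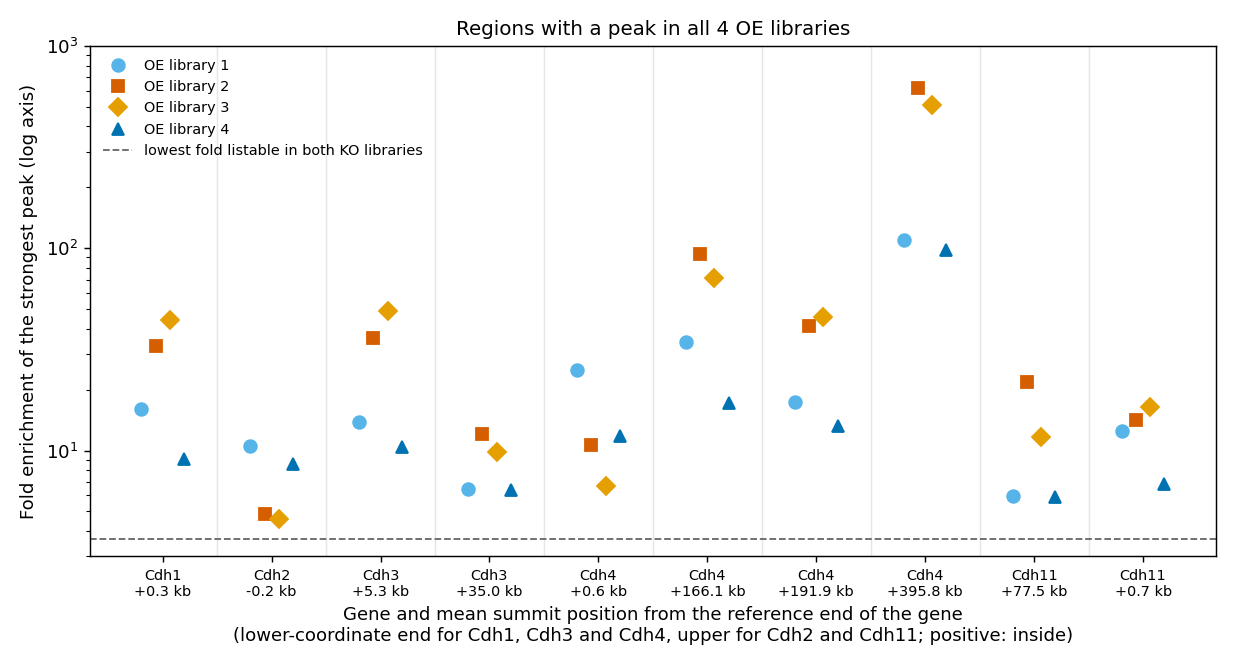
Fold enrichment of the strongest peak (y axis, log scale) in each of the 10 regions with a peak in all 4 OE libraries (x axis, gene and mean summit position), with 1 marker per OE library. The dashed line is the lowest fold listable in both KO libraries, 3.66. Cdh4 has the highest folds, from 98.5 to 621, and the Cdh2 region the lowest in OE libraries 2 and 3.

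Cdh1, the E-cadherin gene (chr8:106603350-106670247, mm10), carried its reproducible region across its lower-coordinate end, where this gene starts in the usual annotation (the gene table used here has no strand). The region spanned chr8:106602763-106604886. Its folds were 16.0, 32.9, 44.3 and 9.08 in OE libraries 1 to 4, at pileups of 31, 209, 278 and 19 fragments. The folds were high in OE libraries 2 and 3 and low in 4, and the mean was 25.6 ± 16.0 (SD, n = 4). These peaks ranked at the 74.2, 96.6, 97.7 and 47.1 percentiles of their lists.

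Within the Cdh1 body a row of further peaks was shared by 3 of the 4 OE libraries. They formed 7 regions with mean summits 5304 to 29558 bp into the gene, none with a peak in OE library 4, a KO library or the input. The best supported of them, 16301 bp into the gene, showed folds of 10.5, 19.9 and 24.95 in OE libraries 1 to 3, with summits within 39 bp of each other. At its neighbour, 14113 bp in, the folds were 6.89, 18.0 and 25.9. In OE library 1 the 7 regions had folds from 6.49 to 10.5. A fold of 4.09 sufficed for listing in OE library 4 at its commonest background, and whether depth accounts for their absence there was not tested.

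Cdh3, which codes for P-cadherin of placenta and skin (chr8:106510852-106556911), lies 46438 bp from Cdh1 with no protein-coding gene between them. Its stronger reproducible region, chr8:106515382-106517152, lay 5328 bp into the gene. The folds there were 13.8, 35.9, 48.8 and 10.4 in OE libraries 1 to 4, with a mean of 27.2 ± 18.3 (SD, n = 4), much like the start region of Cdh1. The second region, 34964 bp into the gene, was weaker, with folds of 6.49, 12.1, 9.85 and 6.36. At the lower-coordinate end of Cdh3, OE libraries 2 and 3 had peaks with summits 9 and 14 bp inside it and folds of 12.9 and 16.1, while OE libraries 1 and 4 had none within 1 kb of that end. The lower-coordinate end of Cdh3 thus differed from that of Cdh1 in which libraries listed a peak.

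**Figure D3:**
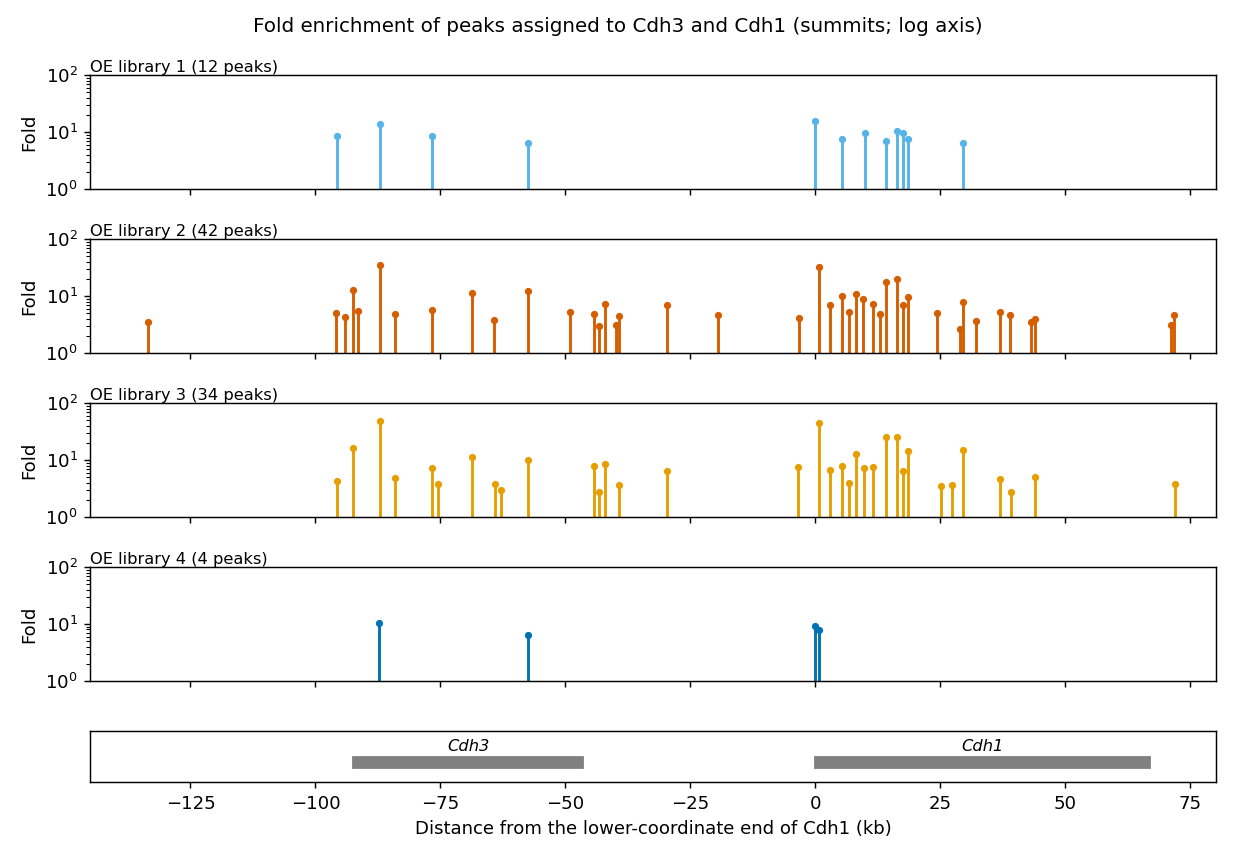
Peaks assigned to Cdh3 and Cdh1 in OE libraries 1 to 4 (panels), drawn at their summits by distance from the lower-coordinate end of Cdh1 (x axis, kb) and by fold enrichment (y axis, log scale), with the gene bodies as grey bars. The row of Cdh1 peaks 5304 to 29558 bp into the gene stands in libraries 1 to 3 and is missing from library 4.

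Cdh2, the N-cadherin gene of neural tube and mesenchyme (chr18:16588877-16809246), had the weakest reproducible region of the 5 genes by mean percentile. It lay just outside the upper-coordinate end, where this gene starts in the usual annotation, at chr18:16809216-16809806. The folds were 10.5, 4.86, 4.61 and 8.63 in OE libraries 1 to 4, with pileups of 20, 30, 28 and 18 fragments. Here, unlike at Cdh1, the folds of the 2 shallower libraries lay above those of the 2 deeper ones. The mean was 7.14 ± 2.89 (SD, n = 4) and the rank 9403 of the 10375 reproducible regions of the genome. A second region, 28446 bp inside that end, had folds of 7.49, 13.6 and 6.99 in OE libraries 1 to 3 and no peak in 4. In OE libraries 2 and 3 the strongest peak counted to Cdh2 was 99184 and 99167 bp outside it, with folds of 13.9 and 11.3, near the 100 kb limit of the assignment.

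Cdh4, the R-cadherin gene of retina and forebrain (chr2:179442423-179899377), held the strongest site of the family. At chr2:179835758-179839636, 395777 bp into the gene and 61177 bp from its upper-coordinate end, the folds were 110, 621, 511 and 98.5 in OE libraries 1 to 4. The pileups at the summits were 219, 3963, 3214 and 216 fragments. Every one of the 4 peaks stood at or above the 99.0 percentile of its list, and the region ranked 102 of 10375. The mean fold was 335 ± 271 (SD, n = 4), with a wide gap between the shallower and the deeper libraries.

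Other regions of Cdh4 were weaker. The region 166057 bp into the gene (chr2:179607806-179608983) had folds of 34.4, 93.7, 71.5 and 17.3, and the one 191864 bp in (chr2:179633796-179635162) had 17.5, 41.2, 45.6 and 13.2. Both again stood higher in OE libraries 2 and 3. The region at the lower-coordinate end, where the gene starts in the usual annotation (chr2:179441983-179443786), had folds of 24.95, 10.7, 6.67 and 11.8, with OE library 1 the highest. A further 5 regions inside Cdh4 had peaks in OE libraries 1 to 3 and not in 4, with mean folds from 5.72 to 18.0.

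**Figure D4:**
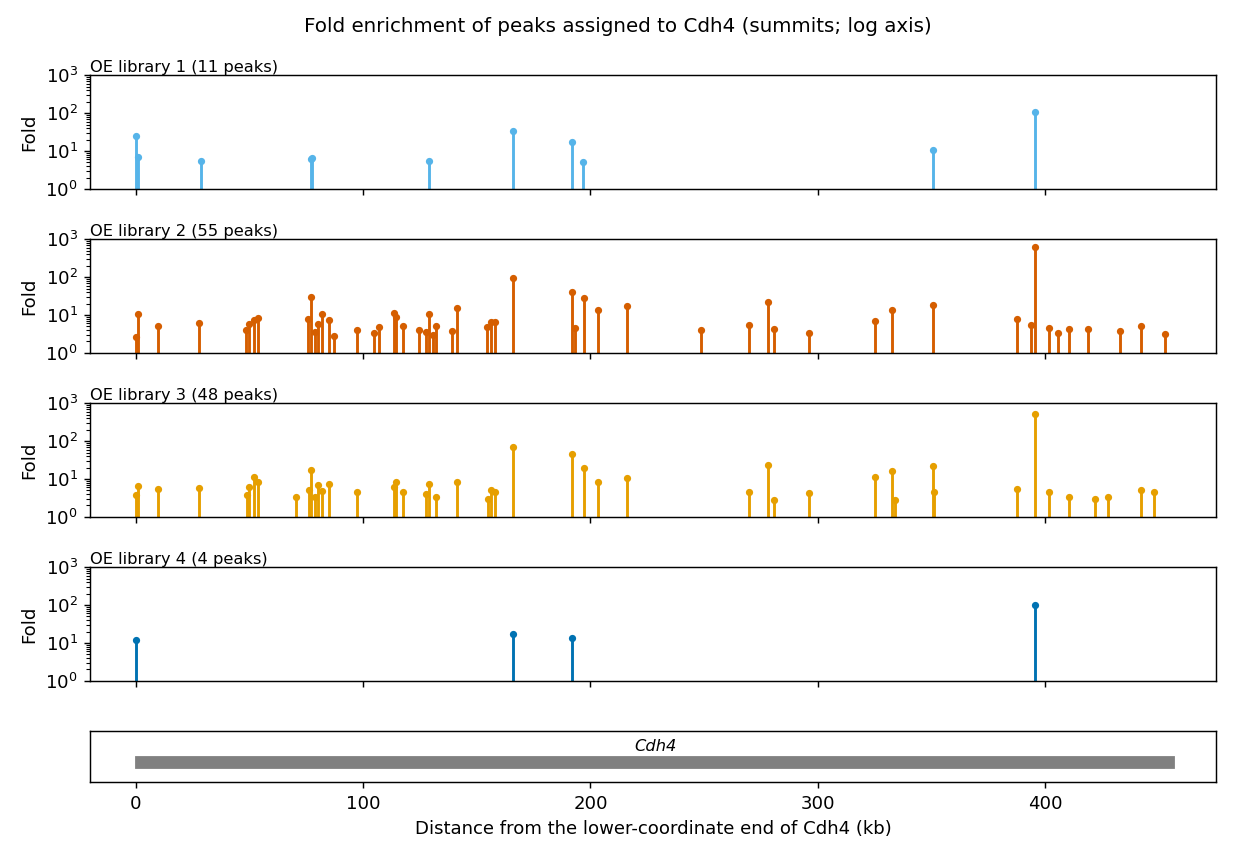
Peaks assigned to Cdh4 in OE libraries 1 to 4 (panels), drawn at their summits by distance from the lower-coordinate end of the gene (x axis, kb) and by fold enrichment (y axis, log scale). The tallest peak, with folds of 110, 621, 511 and 98.5, stands at the same place in all 4 libraries, 395777 bp into the gene.

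Cdh11 (chr8:102632095-102785493) was the 1 gene outside type I with reproducible regions. Near its upper-coordinate end, where the gene starts in the usual annotation, the region chr8:102784216-102785223 had folds of 12.5, 14.1, 16.4 and 6.81 in OE libraries 1 to 4. Library 4 was the lowest, and the mean was 12.4 ± 4.08 (SD, n = 4). The second region, chr8:102707201-102708439 in the middle of the gene, had folds of 5.99, 21.8, 11.6 and 5.90. At both regions the peaks of OE library 4 ranked low in their list, at the 27.8 and 17.7 percentiles. In OE libraries 2 and 3 a further peak lay 77744 and 77793 bp outside the upper-coordinate end, with folds of 8.62 and 10.3.

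Cdh7, a type II cadherin of migrating neural crest (chr1:109982237-110145272), had a region at its start in OE libraries 1 to 3 and no peak in OE library 4. The region, chr1:109982056-109983584, had folds of 7.49, 5.49 and 4.61 at pileups of 14, 34 and 28 fragments. Its summits lay 92, 15 and 1022 bp inside the lower-coordinate end in OE libraries 1, 2 and 3, so library 3 stood apart by position. At Cdh6, a cadherin of kidney and early neural crest (chr15:13028699-13176407), the strongest peaks of OE libraries 2 and 3 shared a site 1453 and 1472 bp inside the upper-coordinate end, with folds of 11.4 and 5.88. At Cdh8, a cadherin of cortical and sensory neurons (chr8:99024471-99417666), the strongest lay 27067 and 27030 bp outside the upper-coordinate end, with folds of 6.43 and 7.63. At Cdh5 (chr8:104101613-104144504) no peak exceeded a fold of 5.46. In OE library 1 the only peaks of Cdh5 and Cdh8 had a fold of 4.99 each, at the 9.66 percentile of that list and with 9 fragments. OE library 1 had 0 peaks at Cdh6, and OE library 4 had 0 at each of these 4 genes.

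Promoter windows from RefSeq (GRCm38.p6, the assembly of mm10 coordinates), each running from 250 bases before to 50 bases after an annotated start, matched 3 of the 9 genes, Cdh6, Cdh7 and Cdh8, with 5 windows. All 5 overlapped an OE peak, some only in part, and 3 of them held a peak summit. These 3 are printed because they show the bases under a TWIST1 summit at an annotated cadherin start. The starts lie inside the gene bodies, not at the gene ends used above. Their summits lay 2697 bp (Cdh6) and 1081 bp (Cdh8) inside the upper-coordinate end and 1022 bp (Cdh7) inside the lower-coordinate end. The strongest Cdh6 peak of OE library 2, with a fold of 11.4, lay outside the printed window. They are given 5′ to 3′ on the strand of the gene, with each E-box CANNTG in capitals. The motif reads the same way on both strands.
Cdh6, chr15:13173626-13173925, minus strand: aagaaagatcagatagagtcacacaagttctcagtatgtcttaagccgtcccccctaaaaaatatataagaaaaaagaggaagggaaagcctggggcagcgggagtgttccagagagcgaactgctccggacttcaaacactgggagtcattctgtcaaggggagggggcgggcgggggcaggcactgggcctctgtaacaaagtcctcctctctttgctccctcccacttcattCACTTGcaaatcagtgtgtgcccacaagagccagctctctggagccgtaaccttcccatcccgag
Cdh7, chr1:109983052-109983351, plus strand: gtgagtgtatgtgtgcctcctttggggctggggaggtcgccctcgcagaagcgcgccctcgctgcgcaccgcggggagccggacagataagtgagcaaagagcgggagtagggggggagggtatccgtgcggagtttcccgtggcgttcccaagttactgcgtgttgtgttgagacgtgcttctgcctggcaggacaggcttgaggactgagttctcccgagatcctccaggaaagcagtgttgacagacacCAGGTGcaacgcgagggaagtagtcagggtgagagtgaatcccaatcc
Cdh8, chr8:99416422-99416721, minus strand: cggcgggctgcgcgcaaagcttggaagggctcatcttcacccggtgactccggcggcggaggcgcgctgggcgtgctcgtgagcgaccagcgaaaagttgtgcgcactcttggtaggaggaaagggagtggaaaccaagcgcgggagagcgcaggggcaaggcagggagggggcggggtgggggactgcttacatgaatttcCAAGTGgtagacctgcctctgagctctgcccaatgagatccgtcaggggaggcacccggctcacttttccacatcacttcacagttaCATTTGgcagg

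The Cdh6 window held 1 E-box, CACTTG, whose middle lay 22 bp from the summit in OE library 2 (fold 3.60). The Cdh7 window held 1, CAGGTG, 47 bp from the summit in OE library 3 (fold 4.61). In the Cdh8 window 2 E-boxes, CAAGTG and CATTTG, lay 68 and 155 bp from the summit in OE library 2 (fold 2.98). Such matches are common: 72.3% of the 32851 promoter windows of 300 bases held at least 1 CANNTG, with a median of 1. CACCTG or its reverse complement CAGGTG was in 20.2% of the windows, CAGATG or CATCTG in 17.2%, CAGCTG in 16.3%, CACGTG in 7.15% and CATATG in 3.91%. Of these, only CAGGTG occurred in the 3 printed windows. All 3 summits belong to weak peaks, and each is the summit of a single library. At Cdh7 the peak of OE library 2 covered the printed window too, with its summit outside it.

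The position of the summits separated the regions at gene starts from those deeper inside the genes. At the Cdh1 start the summits of libraries 1 and 4 lay 53 and 52 bp outside the gene end, and those of OE libraries 2 and 3 lay 753 and 742 bp inside it. At the Cdh4 start they lay 34 and 78 bp inside in libraries 1 and 4, and 1063 and 1052 bp inside in libraries 2 and 3. The same pairs of libraries thus shared a summit to within 44 bp, and the pairs differed by 800 bp at Cdh1 and by 1002 bp at Cdh4. At the Cdh11 start the summits were 473 and 493 bp inside the gene in libraries 1 and 4 and 857 and 837 bp in libraries 2 and 3. At the Cdh2 start they were 80 and 50 bp outside the gene in libraries 1 and 4 and 274 and 268 bp outside in libraries 2 and 3.

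Some libraries listed a second peak near these starts. OE library 4 had a second Cdh1 peak 758 bp inside the gene end, with a fold of 7.72 beside 9.08 at the end itself. OE library 1 had a second Cdh4 peak 1132 bp inside, with a fold of 6.99 beside 24.95. In OE libraries 2 and 3 the Cdh4 start had weak second peaks 114 and 29 bp outside the gene end, with folds of 2.66 and 3.66. At Cdh4 the inner peak was thus the stronger in libraries 2 and 3 and the weaker in library 1. At Cdh1 OE libraries 1, 2 and 3 listed a single peak each across the start.

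Deeper in the genes the 4 libraries placed their summits together. At the strongest Cdh4 region all 4 lay within 31 bp, at the Cdh4 region 166057 bp into the gene within 41 bp, and at the stronger Cdh3 region within 76 bp. Over the 6 regions deeper than 1 kb the range of the 4 summits was 31 to 111 bp, and over the 4 within 1 kb of a gene end it was 224 to 1029 bp. The groups did not overlap. A like difference held over all reproducible regions given to genes. Of 3228 regions within 1 kb of the end of their gene 23.3% had all 4 summits within 100 bp, and of 6369 others 64.0% did. The median gap between the library pairs was 183 bp over all regions near gene ends and 582 bp over the 4 cadherin regions.

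**Figure D5:**
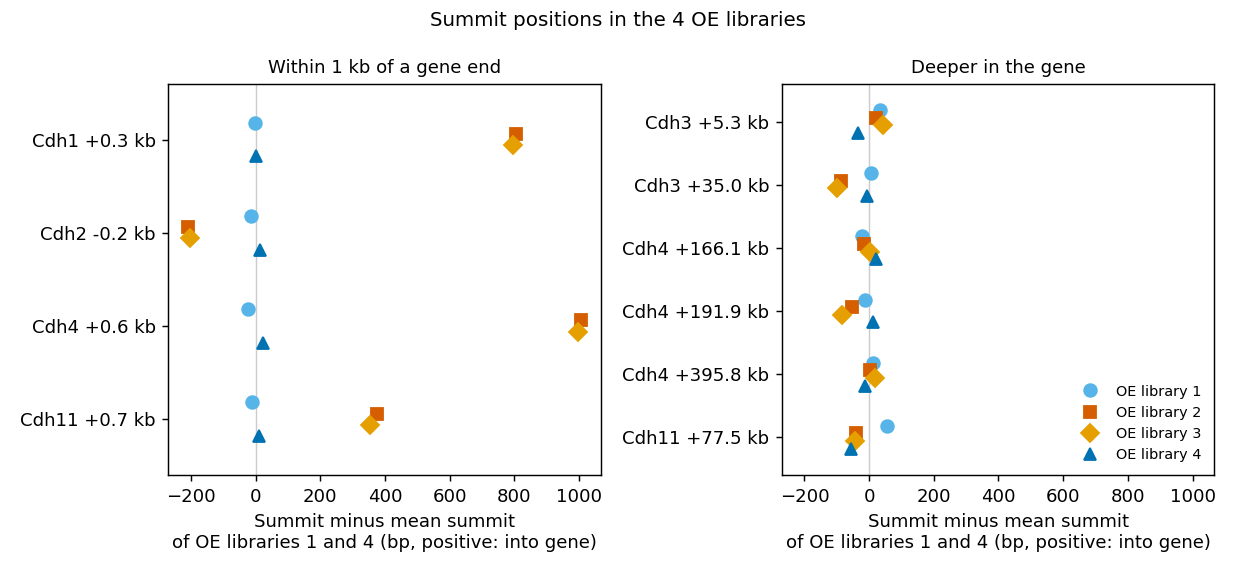
Summit positions of OE libraries 1 to 4 (markers) relative to the mean summit of OE libraries 1 and 4 (x axis, bp, positive values further into the gene) for the 10 reproducible regions. In the left panel (within 1 kb of a gene end) libraries 2 and 3 lie together and apart from libraries 1 and 4 by 206 to 1002 bp, and in the right panel all 4 lie within 111 bp.

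For the 5 genes with a peak in all 4 OE libraries, the median percentile of the strongest peak was 68.3, 96.6, 97.7 and 47.1 in OE libraries 1 to 4, a mean of 77.4 ± 24.4 (SD, n = 4). Since a gene with many peaks has more chances of a strong one, the strongest peaks were also ranked among those of all genes with a peak. Cdh4 then stood at the 98.2, 99.9, 99.7 and 98.5 percentiles, Cdh1 at 58.0, 85.8, 91.0 and 34.1, and Cdh2 at 38.0, 65.9, 60.5 and 31.0. Cdh3 stood at 50.4, 87.0, 91.8 and 42.4, and Cdh11 at 46.6, 78.2, 73.1 and 17.8. On this ranking the medians of the 5 genes in the 4 libraries had a mean of 65.3 ± 27.5 (SD, n = 4). Both means cover only genes kept because every OE library listed a peak there, and that choice favours strong peaks. The peaks and genes they were ranked against did not pass that filter. Neither mean can therefore tell whether cadherin peaks are stronger than those of other genes. A ranking among only the genes with a peak in all 4 OE libraries was not tested. Among the genes without a reproducible region, Cdh5 stood at 4.96, 21.3 and 11.1 in OE libraries 1 to 3, Cdh7 at 21.7, 22.5 and 14.8, and Cdh8 at 4.96, 30.3 and 42.3, while Cdh6 stood at 58.4 and 27.6 in OE libraries 2 and 3. Cdh4 stood high in every library, and all 5 genes with a peak in every OE library stood lower in libraries 1 and 4 than in 2 and 3. The lists differ widely in length, so percentiles of different libraries are not on an equal footing.

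Other genes with nearly the same folds in the 4 OE libraries were looked up by the Euclidean distance of log2 fold of the strongest peak, among 7673 genes with a peak in all 4. Nearest to Cdh4 were Msi2 (distance 0.23, folds 123, 587, 467 and 97.6) and Trpm3 (0.25). Nearest to Cdh1 were Urb2 (0.12) and Nlrp5 (0.20), to Cdh2 Atg16l2 (0.13), to Cdh3 9530068E07Rik (0.04) and Trp73 (0.10), and to Cdh11 Sapcd2 (0.09) and Ncald (0.16). The likeness is over 4 libraries and 1 peak each.

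Genes related to the 9 were counted in the same way, against the 30.3% of all genes with a reproducible region. Of 9 other classical cadherin genes 8 had a region, 12 regions in all where their long territories would give 20.6. Among them was Cdh15, the muscle cadherin gene, with folds of 70.4, 80.2, 73.7 and 44.0 at 3247 bp from the gene, and Cdh20 with 48.5, 168, 135 and 34.96 at 7098 bp. Cdh10 had folds of 44.9, 149, 98.4 and 22.7 at a site 98994 bp away, near the limit of the assignment, and Cdh19 had no region. Apart from Cdh15 these 8 are usually classed as type II, like Cdh5, Cdh6, Cdh7 and Cdh8, which had none. Of 5 other single-chain cadherin genes 3 had a region, among them Cdh13 (T-cadherin) with 4, and Cdh16 and Cdh17 had none.

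Among 12 genes for cytoplasmic partners of cadherins 9 had a reproducible region, with 10 regions where 26.0 would follow from their territories. The beta-catenin gene Ctnnb1 had a region 124 bp from the gene, with folds of 20.5, 3.92, 3.02 and 13.6, so here too the shallower libraries stood high. Jup, which encodes plakoglobin, had folds of 17.0, 48.0, 31.8 and 10.4, and Ctnna2 had 26.0, 18.7, 16.8 and 29.1. The p120-catenin gene Ctnnd1, Ctnnd2, Vcl, Afdn and Lima1 also had a region, Pkp4 had 2, and Ctnna1, Ctnna3 and Arvcf had none. Of 7 genes for repressors and bHLH regulators of Cdh1, 6 had a region, with 11 regions against 7.43 from their territories. Snai1 had 4, Zeb2 and Tcf4 had 2 each, and Snai2, Tcf3 and Twist1 had 1 each, while Zeb1 had none. The Twist1 region is in doubt because the cassette carries Twist1 sequence too. A Snai1 region with folds of 21.5, 74.1, 65.5 and 12.7 lay 12189 bp from the gene. In each of the 4 lists the median gene had 1 region, the same as the median of the 9 cadherin genes.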

How the data were processed

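Peak lists of 7 libraries were analysed on chromosomes 1 to 19, X and Y (21 in all), with coordinates from 1 on mm10. The tools named per the submitters' processing notes are MACS2, BWA, Trimmomatic and Picard, and the builds are GRCm38.p5 and mm10. Tool versions, settings and the caller's control: not given in the sources used here. The choice of control can change which peaks are listed. The authors called peaks per library and deposited a fold enrichment (a linear ratio at the summit), p- and q-values as −log10 (q at least 2.00 in every list), and a score that is a multiple of the −log10 q-value and was used only to check the layout.

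Computed here, with Python 3.11.15, numpy 2.4.6, scipy 1.17.1 and matplotlib 3.10.9, were the assignment to gene bodies of RefSeq (GRCm38.p6, no strand or exons; a summit in overlapping genes counts for each), merged regions, percentiles and exact permutation tests. A whole-number pileup that gave back the −log10 p to within 0.005 was recovered for at least 96.8% of peaks per list. Territory is the length assigned to a gene on a grid of 500 bp. On simulated data over 21887 genes, 900 of 900 planted shared sites were recovered and 0 of 100 with a control peak were kept. Each permutation p rests on the spread among the libraries alone. All 9 genes are described, region by region where all 4 OE libraries had a peak, and related genes are named from lists of 33 genes. One gene with folds like those of Cdh2 is not reported here. The members and the lists were chosen with earlier results of these data known. Alternatives covered the q-value limit, overlap, libraries required, list length, distance, placement and leaving out each library. OE libraries 2 and 3 alone, and 1 and 4 alone, were added after seeing the data.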

Additional observations from a re-analysis of the deposited data

Results flagged for a closer look

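At the Cdh2 start region the peak of OE library 3 was 442 bp wide, while those of OE libraries 4, 1 and 2 were 323, 329 and 337 bp wide. Its gap to the others was large for a group of 4. It was the 1 such case among 40 sets of 4 values examined (peak counts, folds, percentiles and widths at the cadherin genes), where chance alone gives about 1 in 20.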

How the results depend on the processing

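The number of cadherin genes with a reproducible region, 5, was 9 when 2 of 4 OE libraries sufficed (74.98% of all genes) and 9 with OE libraries 2 and 3 alone (74.4%). It was 3 at −log10 q of at least 10 (Cdh1, Cdh3 and Cdh4; 21.7% of all genes) and 2 with summits within 100 bp (Cdh3 and Cdh4; 16.9%), a setting that drops every region whose 4 summits span more. Of 20 alternatives 16 stayed within 1.5 times, and leaving out 1 library gave 5 to 6. The 10 regions became 26 with at least 3 of 4 libraries, 92 with 2 of 4 or with OE libraries 2 and 3 alone, 6 at −log10 q of at least 10 or with equal list lengths, and 4 with summits within 100 bp. Leaving out 1 library gave 10 to 27 regions, the highest without OE library 4. OE libraries 1 and 4 alone gave the same 5 genes and 10 regions.

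The 5 genes with every OE library above both KO libraries became 9 with OE libraries 2 and 3 alone (75.7% of all genes), and 5 to 8 when 1 library was left out. With the replicate block, in which only libraries numbered 2 and 3 were compared within their number, all 9 genes were higher in OE in both pairs (75.7% of all genes), with an exact sign-permutation p of 0.5 each, the smallest that 2 pairs can give. Nothing in the labels says that a number marks a shared culture or batch, and since both KO libraries had 0 peaks at these genes the pairing could not be checked on them. The mean percentile of 77.4, which covers only cadherin genes kept for a peak in every OE library, was 70.7 to 87.5 when 1 OE library was left out. For listing at the commonest background a peak needed a fold of 4.00 or 4.09 in OE libraries 1 and 4. The limits were 2.51 and 2.54 in OE libraries 2 and 3. Whether depth accounts for the peaks that OE libraries 1 and 4 lack was not tested.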

Other observations

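Several cadherin genes stand in gene-poor stretches, and many OE peaks had one of them as the nearest gene at more than 100 kb. Over the 4 OE lists there were 85 such peaks beyond Cdh2, 59 beyond Cdh11, 37 beyond Cdh8, 25 beyond Cdh6, 24 beyond Cdh5 and 16 beyond Cdh7, and 0 beyond Cdh1, Cdh3 and Cdh4, which have near neighbours. Just outside the limit lay a site 111046 bp from Cdh8, with folds of 19.6 and 7.79 in OE libraries 2 and 3. Just inside it lay the Cdh2 site at 99184 bp, with a fold of 13.9 in OE library 2. Peak counts for Cdh2, Cdh11, Cdh8, Cdh6, Cdh5 and Cdh7 therefore depend on where the limit is set.

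Of 151 merged OE regions at the 9 genes, 65 had peaks in OE libraries 2 and 3 and in no other, 16 in libraries 1 to 3, and 10 in all 4. The share in all 4 was 6.62%, against 9.19% of all merged OE regions.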
